A study of Homo sapiens with 12 samples.

Results

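Collagens outside the fibrillar class were examined in HOS cells, a human osteosarcoma cell line, through 10 genes: COL4A1, COL4A2 and COL4A5 of type IV, COL6A1, COL6A2 and COL6A3 of type VI, and COL8A1, COL13A1, COL16A1 and COL18A1. They were chosen by name, as the rows of the count table whose Ensembl identifiers map to these symbols in GENCODE release 29. The rule itself uses no measured value, but the list was drawn up with earlier results of these data known. These are 10 of the 25141 genes in the table, and all 10 were among the 12542 genes that passed the filter on low counts and were tested. In cells carrying a CIN85 plasmid, 9 of the 10 transcripts had a log2FC below 0 against empty-vector cells (48.9% of all genes tested did). By edgeR 1, COL13A1, fell past the significance threshold (1.23% of all genes were called). Its call was lost without Mock replicate 1, 2 or 3 or upCIN85 replicate 1 or 3, and DESeq2 with 6 libraries gave an adjusted P of 0.186. At an unadjusted P below 0.05, 6 members were lower and 1 higher (7.85% and 6.64% of all genes were). DESeq2 with 12 libraries called 3 (311 genes in all). After CIN85 siRNA 0 members passed the significance threshold by edgeR (1.04% of all genes were called). At an unadjusted P below 0.05, 3 members were lower (8.15% of all genes were), and DESeq2 with 12 libraries called 1 (298 genes in all). No member differed between the comparisons by edgeR at the adjusted threshold, where COL13A1 had an adjusted P of 0.106. DESeq2 with 12 libraries called COL13A1 for this difference (adjusted P = 0.0476, 269 genes in all).

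The 12 libraries form 4 groups of 3, and all come from the HOS line. The Mock cells had received an empty vector, and the upCIN85 cells the plasmid pRc/CMV2-Rukl with full-length CIN85, an adaptor protein that links receptors to endocytosis and whose gene is SH3KBP1. Both are geneticin-resistant pools rather than clones, and the name of the plasmid denotes a CMV promoter. CIN85 was depleted in the siCIN85 cells with mixed siRNAs, and a non-targeting siRNA was given to the siNeg cells. The library kit reads 3′ ends and adds molecular identifiers, and total counts per library ranged from 3540641 to 6049458. The study's statistics section speaks of biological replicates in general, but neither it nor the labels say whether these libraries come from separate cultures, so the P-values measure the spread between these samples, which may be technical.

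Levels are given as CPM, counts scaled to a library of equal size with TMM factors. SH3KBP1 was measured at 77.5 ± 5 CPM in Mock and 81.3 ± 9.61 in upCIN85 (SD, n = 3), and siNeg cells had 85.1 ± 2.37 CPM against 7.54 ± 3.19 in siCIN85. It fell by 3.51 on the log2 scale after siRNA (SE 0.21, edgeR adjusted P = 5.09e-08), and its log2FC in upCIN85 versus Mock was 0.07 (SE 0.16, edgeR adjusted P = 0.887). The counts show the knockdown but do not separate a plasmid transcript from that of the gene, and the upCIN85 group is named by its label. The study examined CIN85 protein in its pools by western blot and describes overexpression of the full-length isoform, which the counts here do not measure. Of the osteoblast-lineage markers, VIM was counted at least 1501 times and RUNX2 at least 25 times in every library. SPP1 had 5 to 78 counts and ALPL 0 to 23, IBSP reached at most 1 count in any library, and SP7 and BGLAP had no row in the count table. Markers of other cell types were mixed. The endothelial genes VWF, PECAM1 and KDR reached at most 1, 6 and 6 counts in a library, but CDH5 (2 to 36 counts), TEK (2 to 18) and TIE1 (4 to 49) were counted in every library. The leukocyte genes PTPRC and CD3E reached at most 1 count and CD68 at most 15, while CD14 (4 to 9 counts) and HCLS1 (5 to 90) were counted in every library. The epithelial genes EPCAM, CDH1, KRT8 and KRT18 were also counted in every library, and KRT19 reached at most 4 counts.

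Type IV collagen is the sheet-forming collagen of basement membranes, the thin matrix on which epithelia and vessels rest, and the α1 and α2 chains assemble into its most widespread form. Type VI collagen forms beaded microfilaments that link cells and basement membranes to the surrounding matrix, and its classical molecule joins an α1, an α2 and an α3 chain. The other members differ in build: type VIII is a short-chain network collagen of vessels and cornea, type XIII spans the plasma membrane at adhesion sites, type XVI associates with fibrils through interrupted helices, and type XVIII is a basement membrane proteoglycan whose C-terminal fragment is endostatin. Collagen chains of a given type are folded together in the endoplasmic reticulum, so partner chains are commonly described side by side.

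COL4A1 and COL4A2 lie head to head on chromosome 13, and the DNA between them is shown here because both chains, which the results describe as a pair, start from it. In GENCODE release 29 on GRCh38, COL4A1 occupies chr13:110148963-110307233 on the minus strand and COL4A2 chr13:110305812-110513209 on the plus strand, so the annotated genes overlap only at their 5′ ends. By the RefSeq start sites on GRCh38.p14, COL4A1 starts at base 110307157 and COL4A2 at base 110307284, which leaves 126 bases, chr13:110307158-110307283, written here 5′ to 3′ on the plus strand with COL4A1 on the left and COL4A2 on the right. Capitals mark a CCAAT box at bases 22 to 26 and a GC box (GGGCGG) at bases 62 to 67 from the left.
COL4A1-COL4A2: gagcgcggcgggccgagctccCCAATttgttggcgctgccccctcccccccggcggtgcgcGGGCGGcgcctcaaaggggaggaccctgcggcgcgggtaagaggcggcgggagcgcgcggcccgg

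The stretch is 80.2% G and C. Motifs were searched on both strands as the letters CCAAT for the CCAAT box, as GGGCGG for the GC box and, for the TATA box, as the letters TATAAA, which were not found in the stretch. In the stretches of this length just upstream of 35116 RefSeq start sites, the CCAAT box was found in 21.1%, the GC box in 34.6% and the TATA box in 5.87%. Over the longer promoter windows of 300 bases, the shares were 34.6%, 45% and 11.5%. Of the 8 members with such a window (COL6A1 and COL8A1 had none), the CCAAT box was present for COL4A1, COL4A2 and COL4A5, the GC box for COL4A1, COL4A2, COL6A2, COL16A1 and COL18A1, and the TATA box for COL6A2, COL13A1 and COL18A1. The windows of COL4A1 and COL4A2 share 226 bases, so their motifs are not separate observations. These are matches of letters only.

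The members spanned a wide range of levels in the control cells. Their summed level was 812.5 ± 68.4 CPM in Mock and 931.2 ± 117 CPM in siNeg (SD, n = 3 each). In both control groups the order of mean CPM was COL8A1, COL18A1, COL4A1, COL4A2, COL6A1, COL13A1, COL6A2, COL16A1, COL6A3 and COL4A5. Because the kit reads the 3′ end of each transcript, CPM was not divided by length, and this order also depends on how well each 3′ end is captured. In upCIN85 the summed level was 549.1 ± 79.5 CPM, with its highest library (636.3) below the lowest Mock library (762.3). COL6A1 stood at place 3 there, COL6A2 to place 6 and COL6A3 to place 8. In siCIN85 the sum was 753.3 ± 121 CPM, and its libraries (620.5 to 856.9) overlapped those of siNeg (812.8 to 1047).

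**Figure D1:**
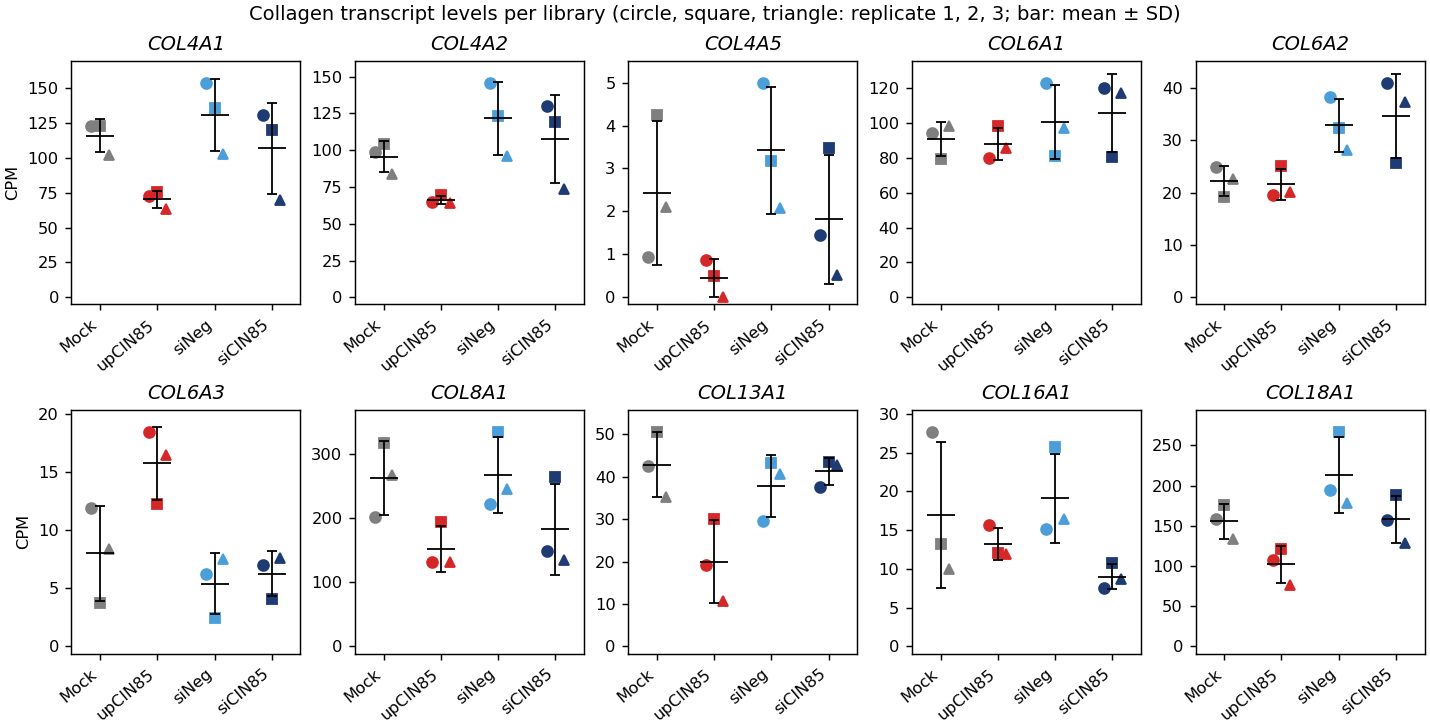
TMM-normalized CPM of each collagen gene on a linear axis in Mock, upCIN85, siNeg and siCIN85, with circle, square and triangle for replicates 1, 2 and 3 and bars for the mean ± SD of 3 libraries. The upCIN85 libraries sit below all Mock libraries for COL4A1, COL4A2, COL4A5, COL8A1, COL13A1 and COL18A1 and above them for COL6A3.

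The comparison of upCIN85 with Mock asks how a pool carrying the CIN85 plasmid differs from the vector control. The median log2FC of the 10 members was -0.57, beside 0.01 over all genes tested, and values ranged from -2.38 for COL4A5 to 0.98 for COL6A3. By edgeR's quasi-likelihood test, 1 of 10 members passed an adjusted P of 0.05, against 1.23% of all genes tested (0.789% lower). At an unadjusted P below 0.05, 6 members were lower and 1 was higher, beside 7.85% and 6.64% of all genes. All libraries of upCIN85 lay below all libraries of Mock for 6 members and above them for 1, where 11% and 9.74% of all genes did so. A log2FC below 0 was found for 9 of 10 members and for 48.9% of all genes. In a fit that added the replicate number as a block in the siRNA libraries only, 5 members passed (COL4A1, COL4A2, COL8A1, COL13A1 and COL18A1, all lower), against 4.35% of all genes. The Mock and upCIN85 libraries carry no block in that fit. Its log2FC for COL4A1 was also -0.72, so the lower P reflects the estimated spread and not a larger difference.

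The comparison of siCIN85 with siNeg asks what changed after CIN85 was depleted. No member passed the threshold by edgeR, against 1.04% of all genes. With the replicate block in the siRNA libraries only, the count was also 0, against 3.42%. With a replicate block in both experiments 3 members passed (COL8A1, COL16A1 and COL18A1, all lower), where 968 genes were called in all. At an unadjusted P below 0.05, 3 members were lower (COL8A1, COL16A1 and COL18A1) and 0 higher, beside 8.15% of all genes lower. DESeq2 called 1 member, COL16A1, with 12 libraries (298 genes in all). With 6 libraries it called 0 (204 genes), but there it gave no adjusted P to COL4A5, COL6A3 or COL16A1, so COL16A1 could not be called. The median log2FC of the members was -0.23, beside -0.01 over all genes, and 6 of 10 had a log2FC below 0, beside 50.8% of all genes. The libraries did not overlap for 1 member, COL16A1, which was lower, as for 10.2% of all genes.

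**Figure D2:**
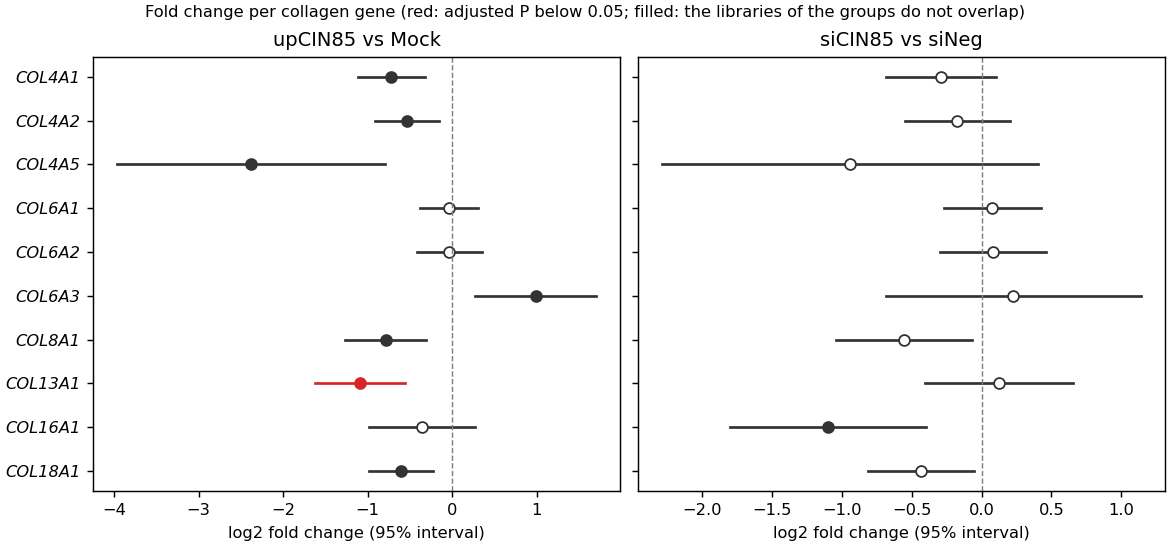
Log2 fold change of each collagen gene with its 95% interval, for upCIN85 vs Mock on the left and siCIN85 vs siNeg on the right, each on its own linear axis. The red point, COL13A1 at -1.09 in upCIN85 vs Mock, is the gene with an edgeR adjusted P below 0.05, and filled points are genes whose libraries do not overlap between the groups.

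COL4A1 (ENSG00000187498), the α1 chain of the basement membrane network, was measured at 123, 123 and 102 CPM in Mock and at 72.4, 75.2 and 63.6 CPM in upCIN85. The groups did not overlap, and the highest upCIN85 library lay well under the lowest Mock library. The log2FC was -0.72 (SE 0.19, 95% CI -1.11 to -0.328), an estimate of 0.607 times the Mock level, with an edgeR adjusted P of 0.0643 and of 0.00184 with the replicate block in the siRNA libraries. In siNeg it was measured at 154, 136 and 103 CPM and in siCIN85 at 131, 120 and 69.7 CPM, so these groups overlapped and replicate 3 was the lowest of each. The log2FC after siRNA was -0.29 (SE 0.19, 95% CI -0.688 to 0.102, edgeR adjusted P = 0.466).

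COL4A2 (ENSG00000134871), its α2 partner, ranked the libraries of upCIN85, siNeg and siCIN85 in the same order as COL4A1. Its level was 99, 104 and 83.7 CPM in Mock and 64.5, 69.4 and 64.4 CPM in upCIN85, again without overlap. The upCIN85 libraries were close to each other, with a coefficient of variation of 4.34%. The log2FC was -0.53 (SE 0.18, 95% CI -0.908 to -0.155, edgeR adjusted P = 0.152, and 0.0117 with the replicate block in the siRNA libraries). In siNeg the level was 146, 123 and 96.1 CPM, and in siCIN85 it was 130, 119 and 73.7 CPM, which overlap. The log2FC after siRNA was -0.18 (SE 0.18, 95% CI -0.551 to 0.201, edgeR adjusted P = 0.676).

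COL4A5 (ENSG00000188153, chrX:108439844-108697545, plus strand), the α5 chain found in the basement membranes of kidney and smooth muscle, was scarce. It had 5, 25 and 12 counts in the Mock libraries and 5, 3 and 0 in the upCIN85 libraries, or 42 against 8 in sum. In CPM the groups did not overlap (0.941 to 4.24 in Mock and 0 to 0.874 in upCIN85), yet Mock replicate 1 had the same count as upCIN85 replicate 1. The log2FC of -2.38 (SE 0.75, 95% CI -3.96 to -0.799, edgeR adjusted P = 0.125) thus rests on few reads. Leaving out 1 library moved it between -3.17 (without upCIN85 replicate 1) and -1.71 (without Mock replicate 2). The counts were 20, 13 and 8 in siNeg and 6, 12 and 2 in siCIN85, and the log2FC was -0.94 (SE 0.64, edgeR adjusted P = 0.497). It moved to -1.75 without siCIN85 replicate 2, to -0.52 without siCIN85 replicate 3 and to -0.57 without siNeg replicate 1. The remaining type IV chains in the table, COL4A3, COL4A4 and COL4A6, reached at most 7 counts in a library and were not tested.

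The balance of the α2 and α1 chains of type IV was compared as the ratio of their counts within a library, which needs no normalization between libraries. COL4A2 per COL4A1 was 0.802, 0.848 and 0.821 in Mock and 0.891, 0.924 and 1.01 in upCIN85. Every upCIN85 library lay above every Mock library. The mean log2 ratio differed by 0.19 (SE 0.06), and the two-sided exact permutation test gave P = 0.1, the smallest value that 3 libraries against 3 allow. The ratio was 0.948, 0.905 and 0.937 in siNeg and 0.994, 0.998 and 1.06 in siCIN85, again higher in each siCIN85 library than in each siNeg library. This difference was 0.13 (SE 0.035, exact permutation P = 0.1). The control groups differed as well: each siNeg library lay above each Mock library, with a mean log2 ratio of -0.105 in siNeg and -0.28 in Mock. The ratio thus also varied between untreated controls of the experiments, by an amount similar to the differences given here, and the source of this was not tested. Leaving out each library in turn kept the plasmid difference between 0.14 and 0.233 and the siRNA difference between 0.0996 and 0.143. The counting error of a single library's log2 ratio was of similar size (0.079 to 0.12).

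Apart from the group means, COL4A1 and COL4A2 varied together. Across the 12 libraries, the deviations of their log2 CPM from the group means had a Pearson r of 0.982, and among 12541 other genes each was the nearest gene to the other. ZNF532 came second for both, with r of 0.958 and 0.972. These correlations describe the libraries, whose depth and preparation all genes share, and with 12 libraries many unrelated genes reach high values. COL4A5 had r of 0.62 with COL4A1 and 0.59 with COL4A2.

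**Figure D3:**
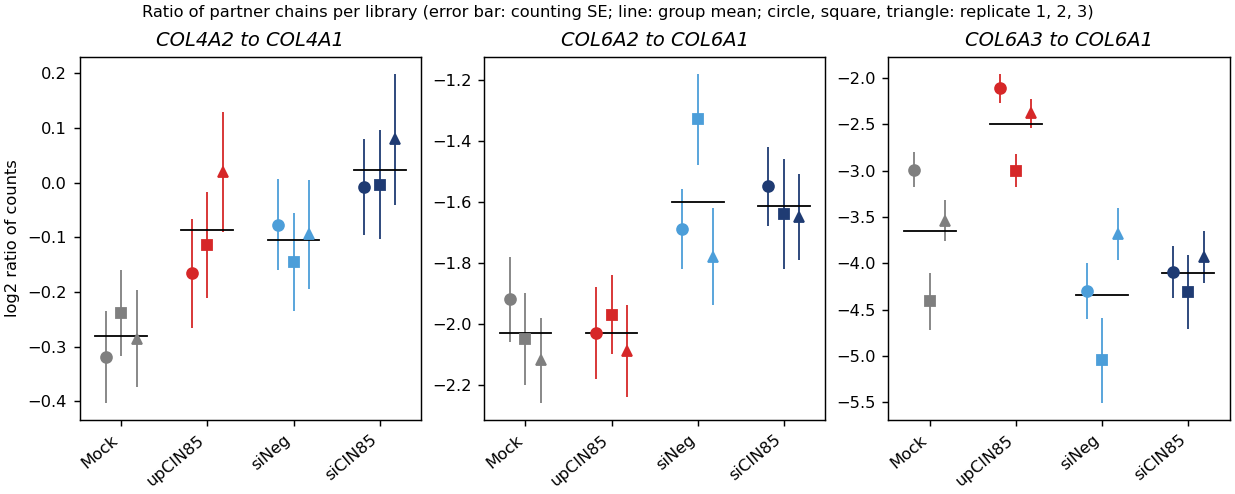
Log2 ratio of the counts of partner chains in each library for COL4A2 to COL4A1, COL6A2 to COL6A1 and COL6A3 to COL6A1, on separate linear axes, with error bars of 1 counting SE and lines for the group means. COL4A2 to COL4A1 is higher in every upCIN85 than in every Mock library and higher in every siCIN85 than in every siNeg library. It is also higher in every siNeg than in every Mock library, and COL6A2 to COL6A1 separates the siRNA libraries from the plasmid libraries.

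COL6A1 (ENSG00000142156, chr21:45981737-46005050, plus strand), the α1 chain of the microfibrillar collagen, was measured at 94.2, 79.4 and 98 CPM in Mock and 79.9, 97.9 and 85.8 CPM in upCIN85. The groups overlapped throughout, with a log2FC of -0.04 (SE 0.16, 95% CI -0.384 to 0.299, edgeR adjusted P = 0.934). In siNeg it was measured at 123, 80.9 and 96.9 CPM and in siCIN85 at 120, 80.1 and 117 CPM. Those groups overlapped as well, and replicate 2 was the lowest of each. The log2FC was 0.08 (SE 0.16, 95% CI -0.27 to 0.425, edgeR adjusted P = 0.861), and neither interval reached a change of 0.5 on the log2 scale.

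COL6A2 (ENSG00000142173, chr21:46098097-46132849, plus strand), the α2 chain, lies 93046 bases downstream of COL6A1. Its level was 24.8, 19.2 and 22.6 CPM in Mock and 19.6, 25 and 20.2 CPM in upCIN85, which overlap (log2FC -0.04, SE 0.18, 95% CI -0.421 to 0.347, edgeR adjusted P = 0.951). In siNeg it was 38.2, 32.3 and 28.1 CPM and in siCIN85 41, 25.7 and 37.2 CPM, which also overlap (log2FC 0.08, SE 0.18, 95% CI -0.301 to 0.463, edgeR adjusted P = 0.868). Each siNeg library lay above each Mock library, with a log2FC between these control groups of 0.57 (SE 0.18, edgeR adjusted P = 0.192). The plasmid and the siRNA libraries also differ in depth, and the part of that or of the preparation in this value was not tested.

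COL6A3 (ENSG00000163359, chr2:237324003-237414375, minus strand), whose α3 chain is the largest of the classical type VI molecule, was the member with a log2FC above 0 in upCIN85 versus Mock. It was measured at 11.9, 3.73 and 8.42 CPM in Mock and 18.5, 12.3 and 16.5 CPM in upCIN85. The groups did not overlap, although the lowest upCIN85 library was close to the highest Mock library and replicate 2 was the lowest of each. The log2FC was 0.98 (SE 0.34, 95% CI 0.268 to 1.7, edgeR adjusted P = 0.165). In siNeg the level was 6.25, 2.44 and 7.55 CPM and in siCIN85 7.04, 4.05 and 7.66 CPM, with overlap and a log2FC of 0.23 (SE 0.43, edgeR adjusted P = 0.843). Replicate 2 was again the lowest library of each group.

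Within type VI, the COL6A2 to COL6A1 ratio of counts was 0.245 in both Mock and upCIN85 as the mean of log2 values, and 0.33 in siNeg and 0.327 in siCIN85. It ranged from 0.231 to 0.263 over the 6 plasmid libraries and from 0.29 to 0.399 over the 6 siRNA libraries, so that the experiments did not overlap, while the groups within each experiment did. The log2 ratio differed by 0.0023 (SE 0.065, exact permutation P = 1) between upCIN85 and Mock and by -0.0127 (SE 0.14, exact permutation P = 1) between siCIN85 and siNeg. The COL6A3 to COL6A1 ratio was 0.0798 in Mock against 0.177 in upCIN85, and 0.0492 in siNeg against 0.0579 in siCIN85. The log2 difference between upCIN85 and Mock was 1.15 (SE 0.49, exact permutation P = 0.2), with overlap, and that between siCIN85 and siNeg was 0.23 (SE 0.41, exact permutation P = 0.8). COL6A1 and COL6A2 deviated together across the 12 libraries (r = 0.85, rank 46 of 12541 genes for COL6A1 and rank 39 for COL6A2), and COL6A3 had r of 0.63 with COL6A1 and 0.37 with COL6A2.

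**Figure D4:**
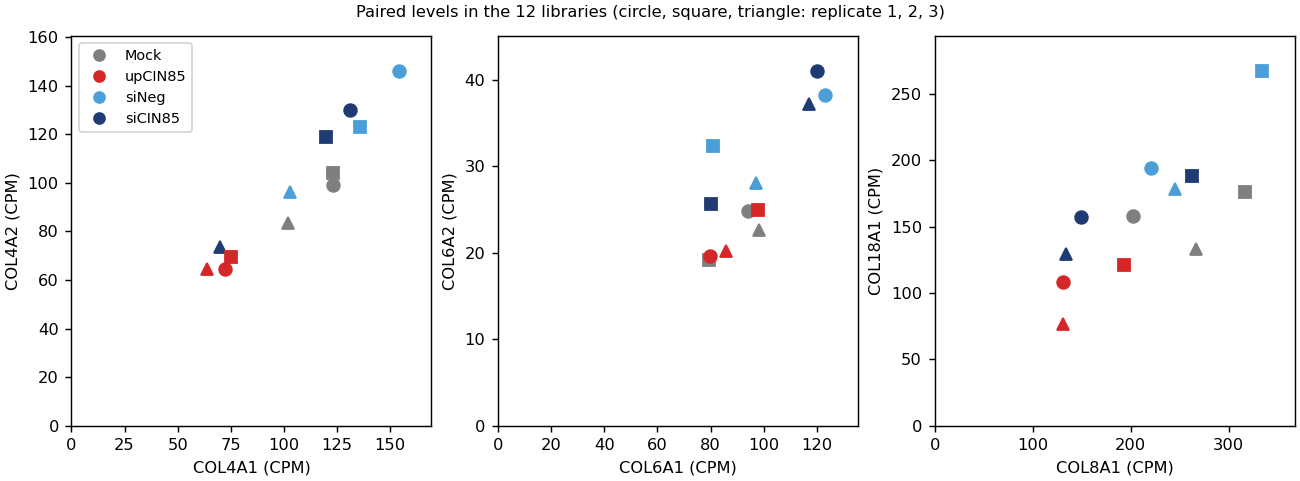
TMM-normalized CPM of COL4A2 against COL4A1, COL6A2 against COL6A1, and COL18A1 against COL8A1 in the 12 libraries, on linear axes from 0, with colors for groups and circle, square and triangle for replicates 1, 2 and 3. The type IV chains lie near a line through all groups, and the upCIN85 libraries hold low places in the left and right panels but not in the middle panel.

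COL13A1 (ENSG00000197467, chr10:69801867-69964275, plus strand), the transmembrane collagen of focal adhesions and the neuromuscular junction, was the member that passed the threshold. It was measured at 42.5, 50.6 and 35.3 CPM in Mock and 19.2, 30.1 and 10.7 CPM in upCIN85, so the groups did not overlap and the upCIN85 libraries were widely spread. COL13A1 fell by 1.09 on the log2 scale (SE 0.25, 95% CI -1.62 to -0.563, edgeR adjusted P = 0.0418), to 0.469 times the Mock level. The call was lost without Mock replicate 1, 2 or 3 (adjusted P = 0.0922, 0.181 and 0.0855) and without upCIN85 replicate 1 or 3 (0.106 and 0.159), with a log2FC between -1.52 and -0.796 over 14 alternatives. DESeq2 gave an adjusted P of 0.00358 with 12 libraries and of 0.186 with 6.

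After siRNA, COL13A1 did not separate the groups. It was measured at 29.5, 43.3 and 40.6 CPM in siNeg and 37.6, 43.4 and 42.8 CPM in siCIN85. The log2FC was 0.13 (SE 0.25, 95% CI -0.407 to 0.657, edgeR adjusted P = 0.853). The difference between the siRNA and the plasmid comparison, tested as an interaction, was 1.22 (SE 0.36, unadjusted P = 0.00321, edgeR adjusted P = 0.106), and DESeq2 with 12 libraries gave an adjusted P of 0.0476. The edgeR adjusted P was 0.00913 without upCIN85 replicate 2 and from 0.13 to 0.261 without each of the other 11 libraries. It was the member with an unadjusted P below 0.05 for this difference, beside 14.5% of all genes. By edgeR 0 members passed the adjusted threshold (0.973% of all genes) and by DESeq2 1, COL13A1 (269 genes in all). The genes nearest to COL13A1 in their deviations across libraries were ARAP2 (r = 0.943), RHOG (0.934) and TSSC4 (0.927), and among the members COL18A1 (0.71).

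COL8A1 (ENSG00000144810, chr3:99638475-99799226, plus strand), the α1 chain of the short-chain network collagen, had the highest mean CPM of the members in every group. It was measured at 202, 317 and 267 CPM in Mock and 131, 193 and 131 CPM in upCIN85. The groups did not overlap, though upCIN85 replicate 2 came close to Mock replicate 1. The log2FC was -0.79 (SE 0.23, 95% CI -1.27 to -0.308, edgeR adjusted P = 0.0909, and 0.00923 with the replicate block in the siRNA libraries). The edgeR adjusted P was 0.0482 without upCIN85 replicate 2 and from 0.0881 to 0.35 without each other library, and DESeq2 gave 0.221 with 12 libraries and 0.000948 with 6. In siNeg its level was 221, 334 and 245 CPM and in siCIN85 149, 263 and 134 CPM. Replicate 2 was the highest in each of the 4 groups, and siCIN85 replicate 2 lay above the other two siNeg libraries, so the groups overlapped. The log2FC after siRNA was -0.55 (SE 0.23, 95% CI -1.04 to -0.0662, edgeR adjusted P = 0.255). The edgeR adjusted P was 0.054 with the replicate block in the siRNA libraries and 0.00137 with a replicate block in both experiments. Each siCIN85 library was below the siNeg library of the same number. Without siCIN85 replicate 2 the log2FC was -0.92 (edgeR adjusted P = 0.0285), and without each other library it lay between -0.67 and -0.37 (adjusted P from 0.229 to 0.597), with the value nearest 0 without siNeg replicate 2. DESeq2 gave an adjusted P of 0.436 with 12 libraries and 0.533 with 6. Nearest to COL8A1 was ADM (r = 0.961), and its partner chain COL8A2 was scarce, with at most 21 counts in a library.

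COL18A1 (ENSG00000182871, chr21:45405137-45513720, plus strand), the basement membrane proteoglycan collagen, lies 468016 bases upstream of COL6A1. It was measured at 158, 176 and 133 CPM in Mock and 108, 121 and 76.7 CPM in upCIN85, without overlap. The log2FC was -0.61 (SE 0.18, 95% CI -0.988 to -0.233, edgeR adjusted P = 0.096), and the adjusted P was 0.0178 with the replicate block in the siRNA libraries and 0.0442 by DESeq2 with 12 libraries. In siNeg its level was 194, 267 and 178 CPM and in siCIN85 157, 188 and 129 CPM, which overlap, although each siCIN85 library was below the siNeg library of the same number. The log2FC after siRNA was -0.43 (SE 0.18, 95% CI -0.812 to -0.0566, edgeR adjusted P = 0.248). The adjusted P was 0.104 with the replicate block in the siRNA libraries, taken as pairs by number, and 0.00583 with a replicate block in both experiments.

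The 3′ end of COL18A1 is covered by SLC19A1, a folate transporter gene on the opposite strand. The strand setting of the counting is not given in the sources used here, so reads of these genes cannot be told apart with certainty. SLC19A1 was measured at 39.3 ± 5.36 CPM in Mock against 34 ± 9.62 in upCIN85, and at 40.5 ± 7.99 in siNeg against 48.3 ± 4.31 in siCIN85 (SD, n = 3), with a log2FC of -0.21 (edgeR adjusted P = 0.667) and 0.26 (edgeR adjusted P = 0.541). COL18A1 deviated with COL8A1 and COL13A1 across the libraries (r = 0.71 for both).

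COL16A1 (ENSG00000084636, chr1:31652247-31704319, minus strand), a collagen with interrupted helices that associates with fibrils, showed its larger difference after siRNA. In siNeg it was measured at 15.2, 25.7 and 16.4 CPM and in siCIN85 at 7.52, 10.7 and 8.71 CPM, without overlap. The log2FC was -1.10 (SE 0.33, 95% CI -1.8 to -0.396), an estimate of 0.467 times the siNeg level, with an edgeR adjusted P of 0.12, of 0.0651 with the replicate block and of 0.0468 by DESeq2 with 12 libraries. In Mock its level was 27.7, 13.2 and 10 CPM and in upCIN85 15.6, 12.1 and 11.9 CPM, which overlap. The log2FC there was -0.36 (SE 0.3, edgeR adjusted P = 0.632) and 0.18 without Mock replicate 1, the high library. The difference between the comparisons was -0.74 (SE 0.45, edgeR adjusted P = 0.479), so COL16A1 was not shown to respond differently to the plasmid and the siRNA. An antisense gene, AC114488.2, covers its annotated 3′ end and has no row in the count table.

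Between the control groups, siNeg versus Mock, no member passed the threshold by edgeR or by DESeq2, and none with the replicate block in the siRNA libraries, against 0.526% and 1.72% of all genes by edgeR. At an unadjusted P below 0.05, 2 members were higher in siNeg (COL6A2 and COL18A1, beside 6.77% of all genes), and these were also the 2 whose siNeg libraries all lay above the Mock libraries (9.48% of all genes). For COL18A1 the log2FC was 0.45 (SE 0.18, edgeR adjusted P = 0.289). This comparison shares its libraries with the plasmid and siRNA comparisons. The members also moved with single libraries: within upCIN85, replicate 2 was the highest for 7 members and replicate 3 the lowest for 7.

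The genes around these collagens were described from lists of related genes. Of the other non-fibrillar collagens, 5 of 17 in the table were tested, and 0 passed in either comparison by edgeR or by DESeq2 with 12 libraries, also with 0 at an unadjusted P below 0.05. The median log2FC of these 5 was 0.14 with the plasmid and -0.24 after siRNA. With the plasmid 3 of them were above 0 and 2 below, unlike most of the members, and after siRNA 2 were above and 3 below. COL12A1, which coats fibrils, had the highest CPM of them (means of 103 CPM in Mock against 113 in upCIN85, and of 101 in siNeg against 78.9 in siCIN85). Of the fibrillar collagens, 8 of 11 were tested, and some of these were singled out by the study on these samples. The study's own overview of differentially expressed genes also names members: COL18A1 as lower in upCIN85 and COL16A1 as lower in siCIN85. It names BGN, described below, as lower in upCIN85 too. By edgeR 1 fibrillar gene was called in each comparison here, against 1.23% and 1.04% of all genes. COL1A2, the α2 chain of type I, rose in upCIN85 (57.2 ± 24 to 145 ± 75.9 CPM, log2FC 1.35, SE 0.31, edgeR adjusted P = 0.0439, range over alternatives 3.4e-18 to 0.27). COL3A1, the chain of type III, fell after siRNA (126 ± 18.3 to 39.2 ± 5.43 CPM, log2FC -1.69, SE 0.29, edgeR adjusted P = 0.013, range 2.02e-30 to 0.0967). The median log2FC of the fibrillar list was 0.32 and -0.81. With the replicate block 4 of its genes were lower after siRNA (COL1A1, COL3A1, COL5A1 and COL5A2), beside 3.42% of all genes called in either direction.

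Laminins are the other network-forming proteins of the basement membrane. Of 12 laminin chain genes, 8 were tested and 0 passed in either comparison by edgeR or DESeq2. At an unadjusted P below 0.05, 1 was higher and 1 lower in upCIN85 (6.64% and 7.85% of all genes). After siRNA 1 was higher and 3 were lower (8.15% of all genes were lower). Their median log2FC was -0.04 and -0.12. LAMC1, the γ1 chain, had the highest CPM, with means of 154 CPM in Mock against 140 in upCIN85, and of 181 in siNeg against 137 in siCIN85. A further list held 14 tested genes of other basement membrane proteins and of matrix proteins that are not specific to it. Of these BGN, a small leucine-rich proteoglycan of the wider matrix, fell in upCIN85 (34.9 ± 2.15 to 18.6 ± 4.43 CPM, log2FC -0.91, SE 0.21, edgeR adjusted P = 0.0439, range 2.98e-05 to 0.219). PXDN, the peroxidase that forms sulfilimine crosslinks in type IV collagen, fell after siRNA (177 ± 39.8 to 108 ± 15 CPM, log2FC -0.71, SE 0.17, edgeR adjusted P = 0.0462, range 3.86e-06 to 0.219), while its log2FC in upCIN85 was -0.01. By edgeR these were the 1 gene called in each comparison, against 1.23% and 1.04% of all genes. The list's median log2FC was -0.20 and -0.14, with 11 of 14 below 0 in upCIN85 and 13 of 14 after siRNA (48.9% and 50.8% of all genes were). With the replicate block SPARC and FBLN1 joined BGN among the genes lower in upCIN85, and SPARC joined PXDN after siRNA. Of all genes, 4.35% and 3.42% were called in that fit.

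Of 15 tested genes for collagen and laminin receptors and other cell-surface binders, 0 passed in upCIN85 by edgeR. At an unadjusted P below 0.05, 1 was higher (6.64% of all genes). DESeq2 called 1 (311 genes in all), and the fit with the replicate block called 1, CSPG4 (4.35% of all genes). ITGA2, the collagen-binding integrin α2, rose after siRNA (9.42 ± 2.36 to 20.7 ± 7.33 CPM, log2FC 1.14, SE 0.26, edgeR adjusted P = 0.0413, range 0.000333 to 0.191). DAG1, dystroglycan, a laminin receptor, fell (43 ± 1.01 to 26.8 ± 2.51 CPM, log2FC -0.69, SE 0.13, edgeR adjusted P = 0.0252, range 0.002 to 0.128). By edgeR 1 of the 15 was thus called higher and 1 lower after siRNA, against 1.04% of all genes called. At an unadjusted P below 0.05, 4 were higher and 4 lower after siRNA (8.15% of all genes were lower). DESeq2 with 12 libraries called 2 higher and 3 lower (298 genes in all). With the replicate block 3 receptors were higher after siRNA (ITGA2, ITGA6 and ANTXR2) and 3 lower (ITGA1, DDR1 and DAG1), beside 3.42% of all genes called. The list's median log2FC was 0.13 in upCIN85 and -0.23 after siRNA. Of 21 tested genes for collagen folding and secretion, 0 passed in either comparison by edgeR. In upCIN85 3 were lower at an unadjusted P below 0.05 (7.85% of all genes) and 1 was lower by DESeq2 (311 genes called in all). After siRNA 4 were lower (8.15% of all genes) and 1 higher, with 2 lower by DESeq2 (298 genes called in all). Their median log2FC was -0.08 and -0.16. With the replicate block P4HB, a subunit of prolyl 4-hydroxylase, passed in upCIN85 (log2FC -0.39) and PLOD2, a lysyl hydroxylase, after siRNA (log2FC -0.47). Of all genes, 4.35% and 3.42% did.

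Endothelial and leukocyte markers are given beside these results because basement membrane collagens are also made by vessels. The summed endothelial markers ranged from 5.83 to 6.84 CPM in Mock and 6.29 to 11.2 in upCIN85, and from 5.86 to 9.64 in siNeg and 11.6 to 19.5 in siCIN85, with 3 of 6 above 0 in every library. The summed leukocyte markers ranged from 13.3 to 17.1, 2.04 to 7.68, 9.9 to 11 and 20.6 to 27.2 CPM in the same order, with 2 of 5 above 0 in every library. The epithelial markers summed to 326 to 387, 332 to 351, 316 to 416 and 316 to 343 CPM, and the osteoblast-lineage markers to 587 to 649, 613 to 682, 470 to 586 and 445 to 561 CPM. Only 5 of the 7 osteoblast-lineage markers had a row, and VIM made up most of their sum (means of 594, 617, 516 and 479 CPM). Among these markers, HCLS1, a blood-cell cytoskeleton adaptor, fell in upCIN85 (12.7 ± 2.07 to 3.18 ± 2.44 CPM, log2FC -1.98, SE 0.35, edgeR adjusted P = 0.0098, range over alternatives 2e-11 to 0.067), and after siRNA its log2FC was 1.26 (edgeR adjusted P = 0.0653, and 0.0303 with the replicate block). ALPL, the alkaline phosphatase of bone, rose in upCIN85 from a level near 1 CPM (0.947 ± 0.102 to 3.26 ± 0.481 CPM, log2FC 1.76, SE 0.39, edgeR adjusted P = 0.034, range 0.00662 to 0.181). ALPL passed the filter on low counts only through its upCIN85 libraries (2.8 to 3.76 CPM, against at most 1.06 elsewhere), so its call also depends on that group. TIE1, an endothelial receptor kinase, rose after siRNA (1.87 ± 1.32 to 9.28 ± 3.24 CPM, log2FC 2.31, SE 0.49, edgeR adjusted P = 0.0317, range 6.67e-07 to 0.171). It passed the filter on low counts because of its siCIN85 libraries (6.8 to 12.9 CPM), so this call depends on the group where TIE1 was high. No epithelial marker passed in either comparison by edgeR or DESeq2. At an unadjusted P below 0.05, 2 of them were higher and 1 lower in upCIN85 (6.64% and 7.85% of all genes), with 0 after siRNA. The part of these markers in the collagen levels was not tested.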

How the data were processed

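RNA of HOS cells (Mock, upCIN85, siNeg and siCIN85, 3 libraries each) was sequenced from 3′ ends, and the authors deposited raw counts of reads per gene. The submitters' processing notes name cutadapt 4.3, STAR 2.7.3a, Picard 2.25.6, Subread 2.0, featureCounts and GRCh38. The annotation, the strand setting and any collapsing of identifiers are not given in the sources used here. Groups follow the labels, and identifiers were matched to GENCODE release 29 (95 had no match). Counts were fitted in R 4.3.3 with edgeR 4.0.16 (filterByExpr with a minimum count of 10 and minimum total of 15, TMM, quasi-likelihood test, all 12 libraries, 8 residual degrees of freedom), with Benjamini-Hochberg adjustment over 12542 genes at 0.05. Each SE is an approximation, the size of the log2FC over the root of its F statistic. DESeq2, the study's tool, was an alternative (DESeq2 1.42.0), besides other filters, scalings, blocks and left-out libraries. The fit was tested on simulated data. Likeness between genes used log2 CPM with a prior count of 2. The labels number the libraries but do not state a pairing. The siNeg and siCIN85 libraries with the same number deviated from their group means together (r = 0.353, 0.269 and 0.446), and they were taken as pairs from these same data. Those of Mock and upCIN85 (0.326, 0.227 and 0.0989) were not taken as pairs, although different numbers there gave lower r, from -0.298 to 0.0303. No pair of libraries within a group was a duplicate. Intervals of log2FC rest on the spread between libraries, and the error bars of chain ratios cover counting error only. Named genes were the 10 members, SH3KBP1, listed genes past the threshold in the plasmid or siRNA comparison, and the genes nearest to members. Genes called only with the replicate block, COL12A1, LAMC1 and overlapping genes were named after their values were seen. The members and lists were chosen with earlier results of these data known.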

Additional observations from a re-analysis of the deposited data

How the results depend on the processing

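Counts of called genes depended on the fit, and the cause was not tested. For upCIN85 versus Mock, 1 member and 154 genes were called, and the counts were 7 and 637 without the filter on low counts, 4 and 281 with only the 6 libraries, 7 and 1035 when both experiments had a replicate block, 5 and 545 when the siRNA libraries alone had it, 3 and 311 by DESeq2 with 12 libraries, and 4 and 369 by DESeq2 with 6. Leaving out each library in turn gave 0 to 2 members and 25 to 260 genes. For siCIN85 versus siNeg, 0 members and 131 genes became 3 and 617 without the filter, 0 and 50 with 6 libraries, 3 and 968 and 0 and 429 with the 2 kinds of replicate block, 1 and 298 by DESeq2 with 12 libraries, 0 and 204 with 6, and 0 to 1 and 9 to 362 without single libraries. For siNeg versus Mock, 0 members and 66 genes became 1 and 376 without the filter, 2 and 588 (COL6A2 and COL18A1) and 0 and 216 with the replicate blocks, 183 and 182 genes by DESeq2 with 12 and 6 libraries, and 7 to 134 genes without single libraries. For the difference of the comparisons, 0 members and 122 genes became 1 and 554, 1 and 918, 0 and 368, and 1 and 269 under no filter, both blocks, the siRNA block and DESeq2, and 0 to 1 and 33 to 341 without single libraries. The block in both experiments leaves 4 residual degrees of freedom. In siCIN85 versus siNeg, DESeq2 with 6 libraries gave COL4A5, COL6A3 and COL16A1 no adjusted P. Without the filter on low counts COL8A1 in siNeg versus Mock turned to a log2FC of -0.00866, and the other changes of sign came from leaving out 1 library, none of them in a called value. Over these fits, the log2FC in upCIN85 versus Mock ranged from -0.134 to 0.0187 for COL6A1, -0.156 to 0.0493 for COL6A2 and -0.626 to 0.179 for COL16A1. In siCIN85 versus siNeg it ranged from -0.339 to 0.0275 for COL4A2, -0.0691 to 0.248 for COL6A1, -0.0608 to 0.239 for COL6A2, -0.141 to 0.53 for COL6A3 and -0.0296 to 0.223 for COL13A1. In siNeg versus Mock it ranged from -0.0292 to 0.288 for COL6A1, -0.165 to 0.181 for COL8A1 and -0.089 to 0.717 for COL16A1, and for the difference from -0.0308 to 0.292 for COL6A1, -0.0231 to 0.271 for COL6A2 and -0.137 to 0.448 for COL8A1. The COL6A2 to COL6A1 log2 ratio ranged from -0.0405 to 0.0552 in upCIN85 versus Mock and -0.105 to 0.124 after siRNA, and COL6A3 to COL6A1 from -0.118 to 0.565 after siRNA. Where a group was left with 2 libraries, the shared spread of all groups was used. Values of COL4A5 are limited by counts of 25 or fewer per library.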
